A study of Mus musculus with 190 samples.

Results

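Whole blood taken before any visible skin disease was set against how severe the dermatitis of the same numbered mouse became weeks later. NC/Nga is an inbred mouse strain that develops dermatitis resembling atopic dermatitis in conventional housing. Of the 190 whole blood samples in the series, 56 belong to the set described here: the samples of the first sampling in groups 1 to 7 whose labels give a dermatitis score of 0. All 56 came from wild-type male NC/Nga mice in conventional housing, and each was paired with the second-sampling sample that carries the same group and the same # number. The first sampling was on day 2 in group 1, day 5 in group 2, day 9 in group 3, day 12 in group 4, day 16 in group 5, day 19 in group 6 and day 23 in group 7. The second sampling, which gave the later score, was on day 44 in groups 1, 3, 5 and 7 and on day 40 in groups 2, 4 and 6. The labels do not state that a # number names the same mouse in both samplings, and no paper was used here, so this pairing is an assumption. No treatment is given in the labels, the age of the mice is not given in them, and the score is a visible grade with no scale described.

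Blood from the tail vein holds red cells and platelets beside leukocytes. Neutrophils, the short-lived phagocytes that carry granules of proteases and antimicrobial proteins, are released from the bone marrow in inflammation, and their number in blood can change within hours. Eosinophils and the type 2 arm of immunity are known for their part in atopic dermatitis, and B cells give rise to the plasma cells that make IgE. In a bulk blood sample, fewer cells of a type and less RNA per cell cannot be told apart.

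The later score was spread widely among mice that had looked alike at the first sampling. It was 4 in 1 mouse, 3 in 25, 2 in 11, 1 in 9, 0.5 in 3 and 0 in 7, so 37 mice later had a score of 2 or more and 19 had less. The mean later score was 2.05 ± 1.34 in group 1 (SD, n = 10), 2.15 ± 1.00 in group 2 (n = 10) and 2.80 ± 0.79 in group 3 (n = 10). It was 2.50 ± 0.53 in group 4 (n = 8), 1.44 ± 1.24 in group 5 (n = 8), 0.833 ± 0.753 in group 6 (n = 6) and 1.25 ± 1.26 in group 7 (n = 4). Groups 1 to 3 had no first-sampling mouse above score 0, whereas 2, 2, 4 and 6 of 10 mice in groups 4, 5, 6 and 7 already had dermatitis and are not members. The members of the last groups are therefore those that were still free of lesions, and the interval to the second sampling shortened from 42 days in group 1 to 21 days in groups 6 and 7. For this reason group was a term in every fit, and all slopes below are within groups.

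**Figure D1:**
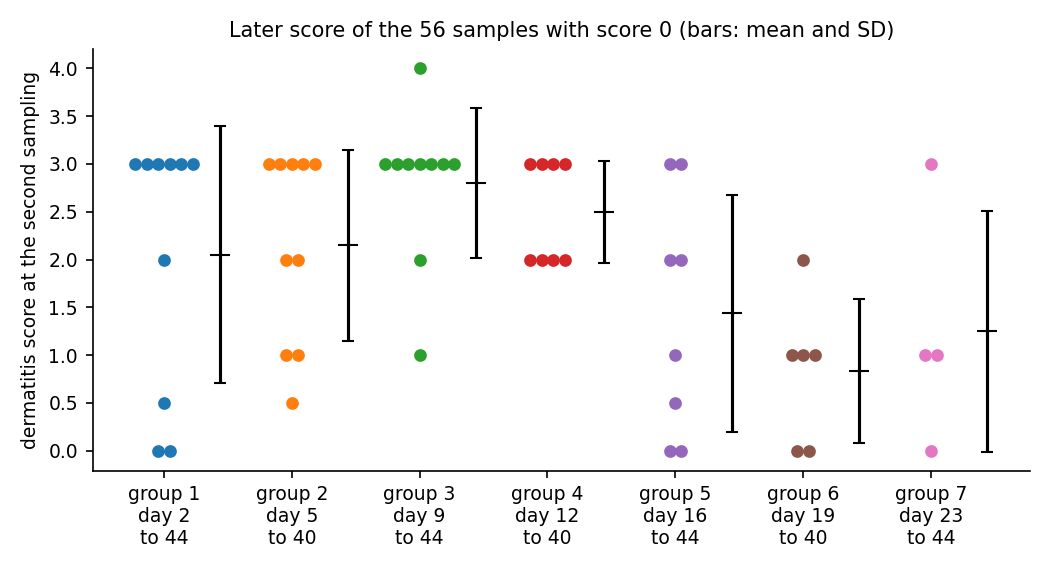
Dermatitis score at the second sampling (vertical axis, score points) for each of the 56 samples with score 0 at the first sampling, by group; tick labels give the first and the second sampling day, and the bars beside the points are the mean and SD. Groups 1 and 5 hold mice from score 0 to 3, while all 8 mice of group 4 reached 2 or 3.

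The 56 samples had total counts between 21706728 and 50553138 (median 34418903.5). The leukocyte gene Ptprc was at 812 CPM or more in every member, where CPM is the count scaled to library size with TMM factors. Cd3e of T cells, Cd79a of B cells, S100a8 of neutrophils, Ccr3 of eosinophils, Alas2 and Hbb-bs of red cells and Pf4 of platelets were listed above 0 in all 56. The globin genes took 0.751% to 11.2% of the counts. The later score was tested against 6 technical measures by permuting scores within groups (100000 draws, two-sided), and none passed. The globin share had a slope of -0.356 ± 0.242 percentage points per score point (SE, p = 0.230) and the mitochondrial rRNA share one of -0.467 ± 0.437 (SE, p = 0.344). The lowest of the 6 p-values was that of the globin share, and all 6 were 0.483 after Benjamini-Hochberg adjustment. Markers of other tissue that tail bleeding can carry were present. The summed level of 13 skin, muscle and connective tissue genes was 11.9 to 405 CPM in members with a later score of 2 or more, with a median of 84.6, against 15.8 to 480 CPM with a median of 40.0 in members with a lower later score. These medians pool the groups. Within groups the mean of this list had a slope of the other sign, -0.0856 ± 0.106 log2 CPM per score point (SE, permutation p = 0.406). The part of such RNA in the slopes below was addressed only by a fit with the mean of that list as a covariate, which also called no gene.

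Whether # numbers mark the same mouse was examined in the data. In groups 4 to 9, where the first score varied, mice with a higher first score for their group also had a higher second score (Pearson r = 0.486, permutation p = 0.00015; Spearman rho = 0.488, permutation p = 0.0002; 60 numbers; r = 0.462 without the 2 numbers farthest from the median). Expression deviated together only weakly. Over 17027 genes and all 90 conventional pairs, the mean correlation of deviations from the group mean was 0.0323 for the same number. It was -0.00293 for other numbers of the group (difference 0.0353, permutation p = 0.00111). In 13 of 90 pairs the best match of the first sample was its own number. In the 56 member pairs alone the difference was 0.0277 (permutation p = 0.0485), and 9 of 56 matched their own number best.

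A small set of genes carried the number far more clearly. The 50 genes whose first and second levels were most alike within groups 8 and 9, which hold no member, were read in the 56 members. Their mean correlation of deviations was 0.232 for the same number and -0.0216 for other numbers (permutation p = 1e-05, the lowest value possible with 100000 draws), and the own number was the best match for 25 of 56. Xlr3b, an X-linked gene expressed in lymphoid cells, is an example. In group 3, picked for display after the values were seen, # 3 was the highest of 10 with 10.1 CPM at the first and 6.92 CPM at the second sampling, and # 6 the lowest with 0.906 and 0.532 CPM. Across the 56 pairs its first and second levels, taken as deviations from the group mean of log2 CPM, correlated with r = 0.921 (rho = 0.845, r = 0.893 without the 2 farthest samples). Ddx3y, a Y-linked RNA helicase gene, gave r = 0.928 (rho = 0.774, 0.900 without 2). Elp3, the catalytic subunit of the Elongator complex, gave r = 0.848 (rho = 0.811, 0.828 without 2), with first-sampling levels that ran from 4.89 to 103.2 CPM. Each of these correlations had a permutation p of 1e-05 and an adjusted p of 2.5e-05 over the 10 genes examined one by one, of which 5 passed in both measures. Kank3, Cdc42bpb, Sfxn1, Naip5 and Ermard, picked in the same way, did not pass in the members. None of the 3 genes tracked the later score: the slopes of expression on it were 0.12 ± 0.10 for Ddx3y (SE), -0.10 ± 0.11 for Xlr3b and -0.12 ± 0.17 for Elp3, all with an adjusted p of 1.00 in edgeR's quasi-likelihood test.

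**Figure D2:**
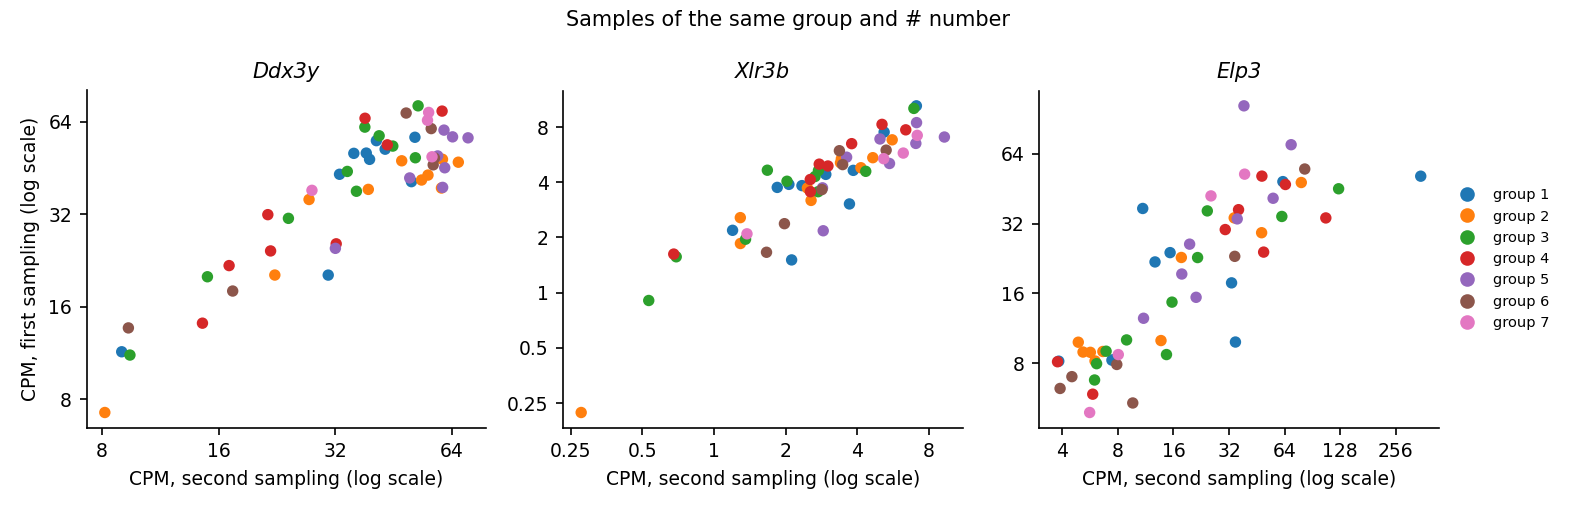
CPM at the first sampling (vertical axis, log scale) against CPM at the second sampling (horizontal axis, log scale) of Ddx3y, Xlr3b and Elp3; each point is 1 of the 56 group and # number pairs, coloured by group. Points lie along a rising line in all 3 panels, with r of 0.928, 0.921 and 0.848 after group means were removed.

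No gene in score-0 blood passed the test for a slope on the later score. Of 17115 genes tested with edgeR's quasi-likelihood test, 0 (0%) had a Benjamini-Hochberg adjusted p under 0.05, and the lowest adjusted p was 0.922. DESeq2's Wald test also called 0. At an unadjusted p under 0.05 there were 711 genes in edgeR (4.15% of those tested, 500 with a positive and 211 with a negative slope) and 771 in DESeq2. The excess of positive slopes did not hold in the early samplings. In edgeR fits of groups 1 to 4 alone, 343 of 553 such genes had a negative slope. With groups 5 to 7 alone, 569 of 881 had a positive one. A slope is the change in log2 CPM per point of later score, with group as a covariate, and the p-values take samples as units. The fit had 48 residual degrees of freedom, and its median standard error was 0.0521. For 10717 genes (62.6%) the whole 95% interval lay within 0.2 log2 units per score point of 0, so for these genes larger linear slopes were outside the interval.

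Of the 10 genes with the smallest p among positive slopes and a mean of at least 1 CPM, Wfdc21, Clec4e and Mmp8 stand in the mature neutrophil list, and none of the 10 was called. Wfdc21 (ENSMUSG00000051748.3, chr11:83637766-83643468 of GRCm39), a small secreted protein of the whey acidic protein family, had the lowest p of these. In group 5 it was 8.31 to 9.42 CPM, median 8.87, in the 4 mice with a later score of 2 or more, against 2.39 to 11.3 CPM, median 5.36, in the 4 mice with a lower one. In group 1 the values were 2.15 to 12.3 CPM, median 4.50, in 7 mice with the higher later score, against 3.38 to 5.03 CPM, median 3.58, in 3 mice with the lower. The median was higher in the mice with the higher later score in 6 of the 6 groups that held both kinds. The ranges overlapped in 4 of them. Wfdc21 was picked by its slope in these same samples, so the order of medians is largely fixed by that choice. The slope was 0.39 ± 0.10 log2 per point (SE, unadjusted p = 0.000227, adjusted p = 0.922, edgeR).

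Clec4e (ENSMUSG00000030142.11, chr6:123258748-123266829 of GRCm39) encodes Mincle, a C-type lectin receptor of myeloid cells. In group 2 it was 6.50 to 13.3 CPM, median 9.84, in the 7 mice with the higher later score and 4.90 to 8.54 CPM, median 7.73, in the 3 with the lower one. In group 6 the single mouse that reached a score of 2 had 81.5 CPM, above the 14.6 to 34.5 CPM of the 5 others. Medians were ordered this way in 6 of 6 groups, with overlapping ranges in 5, and the slope was 0.34 ± 0.09 (SE, adjusted p = 0.922, edgeR). Mmp8 (ENSMUSG00000005800.4, chr9:7558457-7568486), the neutrophil collagenase, had 119.01 CPM in the only group 7 mouse that reached a score of 3, against 17.7 to 92.2 CPM in the 3 others of that group. In group 3 it was 8.61 to 52.2 CPM in 9 mice with the higher score, and 14.7 CPM in the 1 mouse with the lower. Its slope was 0.36 ± 0.10 (SE, adjusted p = 0.922, edgeR), and medians were ordered the same way in 6 of 6 groups. Clec4e and Mmp8 were also picked by this slope, so the order of their medians is largely fixed by that choice.

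The other 7 were Fpr1, the formyl peptide receptor by which neutrophils sense bacteria (0.31 ± 0.09), Il18rap, a chain of the interleukin-18 receptor (0.15 ± 0.04), Cd244a, a receptor of natural killer and myeloid cells (0.17 ± 0.05), and Kcnj2, an inward rectifier potassium channel (0.21 ± 0.06). Ppp1r3d, a subunit that directs protein phosphatase 1 to glycogen, had a slope of 0.35 ± 0.10, Atp11a, a phospholipid flippase, one of 0.19 ± 0.05, and Acpp, an acid phosphatase, one of 0.17 ± 0.04. All values are SE and all adjusted p were 0.922 in edgeR's test. Among negative slopes of genes with a mean of at least 1 CPM the lowest p belonged to Spns3, a transporter gene (-0.23 ± 0.07), Parn, a poly(A) ribonuclease (-0.08 ± 0.02), and Igkc, the constant region of the kappa light chain of antibodies (-0.11 ± 0.03). Rsl1, a zinc finger repressor, had -0.19 ± 0.06, B3gat3, an enzyme of glycosaminoglycan linkage, -0.11 ± 0.04, and Cd200, an inhibitory surface protein that B cells carry, -0.10 ± 0.04. The remaining 4, Mtrr, Evl, Zfp688 and Ppfia1, ran from -0.10 to -0.06. The adjusted p was 0.922 or 0.967 for these 10.

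**Figure D3:**
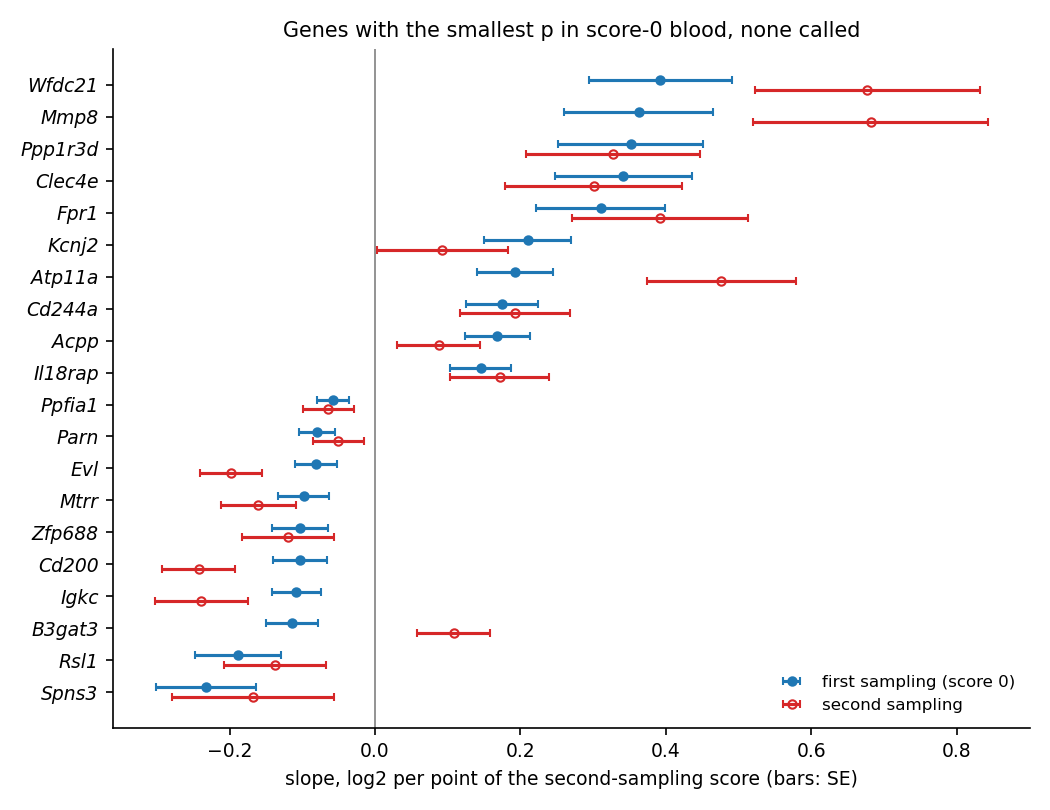
Slope of expression on the second-sampling score (horizontal axis, log2 CPM per score point, bars are SE) for the 10 genes of smallest p in each direction in score-0 blood; filled points are the first sampling and open points the second sampling of the same numbers. None was called at the first sampling. B3gat3 has opposite signs, with -0.11 at the first and 0.11 at the second sampling.

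Described as a list, mature neutrophil genes leaned one way without any member being called. All 20 listed genes were tested, all 20 slopes were positive, and 18 had an unadjusted p under 0.05, beside 8425 positive of 17115 (49.2%) and 4.15% under 0.05 for all genes. These genes come from 1 cell type, so they are not independent of each other, and the list was chosen with earlier results of these data known. The median slope was 0.253 log2 per point, beside -0.000845 over all genes tested, and ran from 0.0864 for Cd177 to 0.439 for Acod1. S100a8 and S100a9, the calprotectin subunits, had slopes of 0.32 ± 0.10 and 0.28 ± 0.09, Ly6g, the marker of mouse neutrophils, 0.44 ± 0.14, Trem1, an amplifier of myeloid activation, 0.26 ± 0.08, Cxcr2, the chemokine receptor that guides neutrophils out of the marrow, 0.20 ± 0.07, and Csf3r, the receptor for G-CSF, 0.12 ± 0.06 (SE, none called by edgeR).

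The list mean was also fitted group by group. Its slope on the later score was 0.0642 ± 0.155 in group 1 (SE), 0.0553 ± 0.162 in group 2, 0.351 ± 0.261 in group 3 and 0.828 ± 0.403 in group 4. It was 0.152 ± 0.147 in group 5, 0.751 ± 0.360 in group 6 and 0.643 ± 0.366 in group 7. All 7 slopes were positive, and those of groups 1 and 2 were smaller than their standard errors. The steepest slopes rest on little spread or few mice. Group 4 held later scores of 2 and 3 only. Groups 6 and 7, with 6 and 4 mice, each held 1 mouse with a later score of 2 or more. As a deviation from the group mean, the list mean was above 0 in 25 of 37 mice with a later score of 2 or more, with a range of -1.13 to 1.30 log2 and a median of 0.224. It was above 0 in 8 of 19 mice with a lower later score, with a range of -1.53 to 0.701 and a median of -0.152. The distributions overlapped over most of their range. The single mouse that reached a score of 4, # 5 of group 3, stood 1.27 above its group mean, and the 7 mice that still had a score of 0 stood between -1.53 and 0.164, with 2 of them above their group mean.

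**Figure D4:**
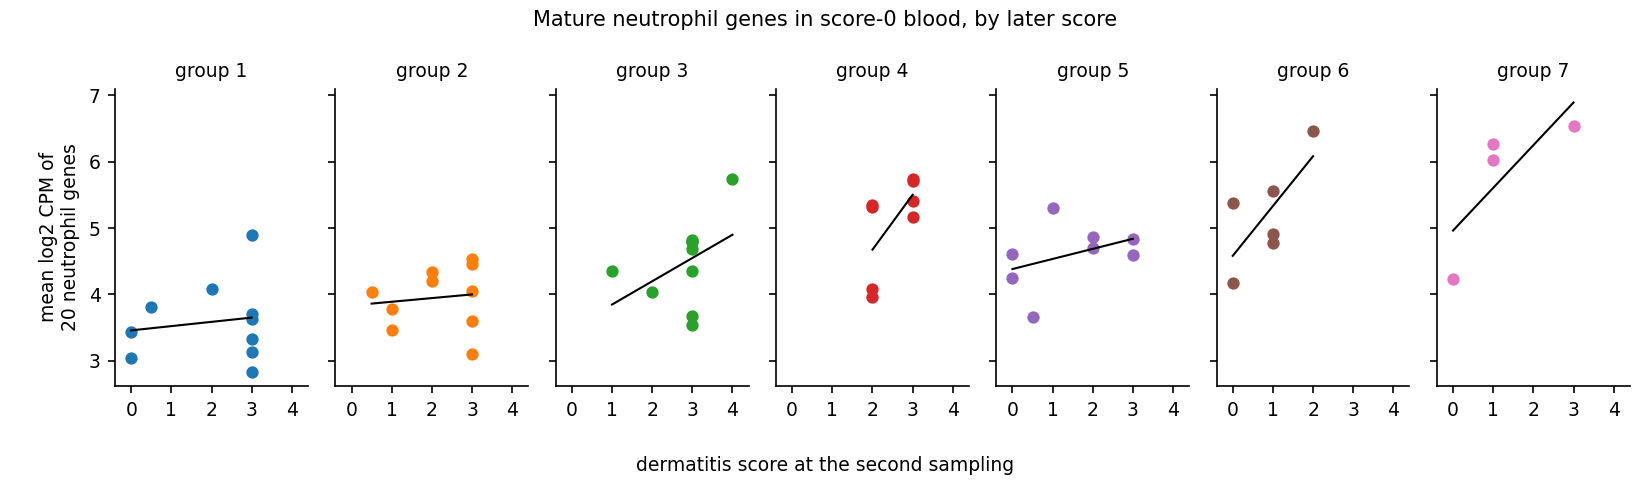
Mean log2 CPM of the 20 mature neutrophil genes (vertical axis) at the first sampling against the dermatitis score at the second sampling (horizontal axis, score points), 1 panel per group, with the least-squares line of each group. All 7 lines rise, by 0.0553 to 0.828 log2 per point, and points at the same score scatter by more than 1 log2 unit in several groups.

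How many of the 20 neutrophil genes had an unadjusted p under 0.05 depended on the groups included. It was 3 of 20 in groups 1 to 3, where no mouse had been left out for an early score, 8 of 20 in groups 1 to 4 and 14 of 20 in groups 5 to 7, with median slopes of 0.167, 0.223 and 0.307. Leaving out any 1 of the 56 samples gave 15 to 19 genes, the fewest without # 10 of group 6. The median was then 0.206 to 0.271, the lowest without # 7 of group 1. With the globin and mitochondrial rRNA shares as covariates 16 of the 20 remained under 0.05, and with the skin, muscle and connective tissue mean 17. The list mean also differed between groups, from 3.59 ± 0.60 log2 CPM in group 1 to 5.77 ± 1.04 in group 7 (SD), so medians pooled over groups do not show the slope. S100a8 had a pooled median of 253 CPM in mice with the higher later score and 276 CPM in mice with the lower one.

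Other myeloid lists had smaller counts. Of 9 immature neutrophil genes tested, 7 slopes were positive and 4 had an unadjusted p under 0.05, with a median of 0.225. Among these granule genes Lcn2 had 0.38 ± 0.12, Ltf 0.31 ± 0.10 and Camp 0.38 ± 0.14 (SE). All 11 classical monocyte genes had positive slopes, 4 of them with p under 0.05, and a median of 0.0863. Cd14, the lipopolysaccharide co-receptor, had 0.23 ± 0.09 and Ccr2, the receptor for monocyte exit from the marrow, 0.09 ± 0.05. Chil3 and Ly6c2 stand in both of these lists. The 10 nonclassical monocyte genes had a median of 0.0110, with 7 positive slopes and 0 under an unadjusted p of 0.05. Over all genes tested the share under 0.05 was 4.15%.

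Lymphoid lists had small slopes. All 17 B cell genes were negative, from -0.104 to -0.0332, with a median of -0.0662. Of the 17, 1 had an unadjusted p under 0.05, near the 4.15% of all genes tested. The slope of the list mean was negative in 7 of 7 groups. Ms4a1, which encodes CD20, had -0.07 ± 0.04, and Fcer2a, the low-affinity IgE receptor, -0.08 ± 0.05 with a 95% interval of -0.17 to 0.02. The 11 MHC class II genes had a median of -0.0402, with 1 positive slope and 2 under 0.05. H2-Ab1 had -0.08 ± 0.04. The 18 T cell genes had a median of -0.0151, and Cd3e had 0.03 ± 0.04. All 14 cytotoxic lymphocyte genes were slightly positive, with a median of 0.0404 and 0 under an unadjusted p of 0.05.

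Lists tied to type 2 immunity had medians from -0.0166 to 0.0224. The 10 eosinophil genes tested had a median of -0.0166, 3 positive slopes and 0 under an unadjusted p of 0.05. Ccr3, the eotaxin receptor, was 1.23 to 35.6 CPM, median 10.8, in mice with a later score of 2 or more, and 0.985 to 33.1 CPM, median 16.4, in mice with a lower one. These medians pool groups, whose eosinophil list means ran from -0.451 log2 CPM in group 2 to 1.18 in group 7. Within groups the slope of Ccr3 was -0.02 ± 0.07, with a 95% interval of -0.17 to 0.12. Siglecf had 0.05 ± 0.08 and a 95% interval of -0.11 to 0.22, Mcpt8 of basophils 0.09 ± 0.09, and Il1rl1, the receptor for interleukin-33, 0.01 ± 0.03. Epx was below the count filter. The 10 basophil and mast cell genes had a median of 0.0224, with 8 positive slopes and 1 under 0.05. In the 12 type 2 immunity genes the median was 0.0167, with 1 under 0.05. The 29 interferon-stimulated genes had a median of 0.0156 and 2 under 0.05, Oasl2 with 0.16 ± 0.08 and Trim30a with 0.08 ± 0.03. Ifit3 had -0.04 ± 0.06. Over all genes tested 4.15% were under 0.05, and these counts of 1 or 2 genes a list are not far from that share. All 21 red cell genes had small positive slopes, with a median of 0.0234 and 0 under an unadjusted p of 0.05.

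The blood drawn when the score was given served as the comparison. In the 56 second-sampling samples of the same numbers, 5160 of 16103 genes were called on the same scores with edgeR's quasi-likelihood test, 2584 higher (16%) and 2576 lower (16%) with rising score. Restricted to groups 5 to 7, with 18 mice and lower scores, 0 of 15016 genes were called and 1552 had an unadjusted p under 0.05, against 5438 called in groups 1 to 4. With globin and mitochondrial rRNA shares as covariates the count was 2878, a fit chosen after the data were seen. The largest rises among genes with at least 1 CPM were Lipg, endothelial lipase (1.93 ± 0.32 log2 per point, SE), Saa3, an acute-phase protein (1.66 ± 0.31), Oas1e of the oligoadenylate synthetase family (1.36 ± 0.22), Mthfd2, a mitochondrial folate enzyme (1.30 ± 0.18), and Cystm1 (1.30 ± 0.34). At the first sampling Lipg and Saa3 were below the count filter, Oas1e had 0.11 ± 0.09, Mthfd2 0.07 ± 0.04 and Cystm1 -0.29 ± 0.22. The largest falls, of Dsp (-1.52 ± 0.27), Peg3 (-1.48 ± 0.48), Lrrc15 (-1.34 ± 0.37), Derpc (-1.31 ± 0.43) and Gja1 (-1.17 ± 0.20), concern genes whose RNA sat in few samples. Dsp, which encodes desmoplakin of epithelial junctions, reached 90.5 CPM in # 5 of group 5, with the next sample at 17.4 and a median of 0.242 CPM. Without that sample Lrrc15 was no longer called (-0.44, adjusted p = 0.189), and 4844 genes were. Peg3 was 76.5 CPM in # 10 of group 5 and at most 1.04 CPM in the other second-sampling samples, and was not called by DESeq2 (adjusted p = 0.0904). Derpc was not called with the shares as covariates (adjusted p = 0.0736).

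A gene called in one sampling and not in the other is not thereby shown to differ, so the difference of slopes, first minus second sampling, was tested over the samples of both samplings. Of 17822 genes, 1221 had a positive difference (6.85%) and 1542 a negative one (8.65%) past an adjusted p of 0.05 in edgeR's test, which took repeated numbers as independent samples. Among the 2584 genes that rose with score at the second sampling, the median slope was 0.0222 at the first and 0.279 at the second sampling, and 1507 had slopes that differed. Among the 2576 that fell, the medians were -0.0105 and -0.164, and 1055 had slopes that differed. These genes were picked by their second-sampling slope, which also enters the difference, so a larger second median and many differing slopes are partly fixed by the choice.

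The lists divided by how their genes moved at the time of disease. Of 21 red cell genes, all 21 rose with the score at the second sampling and 20 had a slope that was lower at the first sampling, with medians of 0.0234 and 0.469. Epb42, a protein of the red cell membrane skeleton, had 0.11 ± 0.07 at the first sampling and 0.85 at the second, with a difference of -0.73 (adjusted p = 0.00209, edgeR). Alas2, the first enzyme of heme synthesis in red cells, had 0.02 ± 0.04 and 0.33 ± 0.09, with a difference of -0.30 ± 0.09 (adjusted p = 0.0111). Of 29 interferon-stimulated genes, 16 rose and 1 fell at the second sampling and 11 had a lower slope at the first. Over all genes tested 16% rose, 16% fell and 8.65% had a negative difference. The 1 of 29 that fell is below that share. Isg15, a ubiquitin-like protein induced by interferon, had 0.09 ± 0.07 and 1.05 ± 0.18, with a difference of -0.95 ± 0.18 (adjusted p = 0.000291). Rsad2, the antiviral protein viperin, had a difference of -0.52 (adjusted p = 0.00171).

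The largest negative differences among genes with at least 1 CPM included enzymes of amino acid and folate metabolism. Mthfd2 differed by -1.22 ± 0.17 and Asns, asparagine synthetase, by -1.12 ± 0.22, followed by Isg15, Mgst3, a microsomal glutathione transferase (-0.90 ± 0.21), and Mpst, a sulfurtransferase (-0.88 ± 0.17). Asns was 0.696 to 3.90 CPM, median 1.59, in first-sampling mice with a later score of 2 or more and 0.966 to 2.79 CPM, median 1.38, in those with a lower one. Its slope was 0.05 ± 0.08 at the first sampling and 1.18 ± 0.21 at the second. The 5 largest positive differences were Krt25, Krtap15, Krt71, Krtap7-1 and Krtap22-2, genes of hair keratins and their associated proteins, with fitted values of 6.18 to 10.96. These rest on few samples: at the second sampling # 5 of group 5, with a score of 0, held 141.5 CPM of Krt25 while 50 of 56 samples were at 0. Without both samples of that mouse number 4 of the 5 were no longer called, Krt71 had 3.34 (adjusted p = 0.0417), and 2288 genes were called in all.

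For neutrophil genes the difference between the samplings mostly missed the threshold. At the second sampling 15 of 20 rose with the score, beside 16% of all genes tested. The median slope was 0.410, against 0.253 at the first sampling, where 0 were called. For 1 of 20, Cd177, the difference passed (adjusted p = 0.0343, edgeR). That share is below the 8.65% of all genes tested with a negative difference. Clec4e had 0.34 ± 0.09 at the first sampling and 0.30 ± 0.12 at the second, with a difference of 0.04 ± 0.15 (adjusted p = 0.901). S100a8 had 0.32 ± 0.10 and 0.50 ± 0.16, with a difference of -0.18 ± 0.19 (adjusted p = 0.593). A difference that missed the threshold does not show that these slopes were equal.

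Most B and T cell genes fell with the score at the second sampling. Of 17 B cell genes 16 fell, with a median of -0.264, and 4 differed from the first sampling, among them Fcer2a, with -0.08 ± 0.05 at the first and -0.36 ± 0.08 at the second sampling (difference 0.28 ± 0.10, adjusted p = 0.0364). Of 18 T cell genes 14 fell and 4 differed, Cd3e with a difference of 0.21 ± 0.07 (adjusted p = 0.0212). Of 14 cytotoxic lymphocyte genes 5 fell and 5 differed, of 10 plasma cell genes 4 fell and 2 rose, and of 9 regulatory T cell genes 1 fell. Over all genes tested, 16% fell and 16% rose at the second sampling, and 6.85% had a positive difference. The 2 rising plasma cell genes and the 1 falling regulatory T cell gene are near or below those shares. Klrb1c, the NK1.1 receptor gene, had 0.03 ± 0.03 and -0.18, with a difference of 0.22 (adjusted p = 0.00369), and Gzma, the protease granzyme A, had 0.07 ± 0.04 and -0.12 ± 0.05, with a difference of 0.19 ± 0.06 (adjusted p = 0.0239). B3gat3 was the only one of the 20 genes with the smallest first-sampling p whose slopes differed (difference -0.22 ± 0.06, adjusted p = 0.0064, edgeR). These 20 were picked by their first-sampling slope, which also enters the difference. The 1 of 20 is below the 6.85% and 8.65% of all genes tested with a positive and a negative difference.

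**Figure D5:**
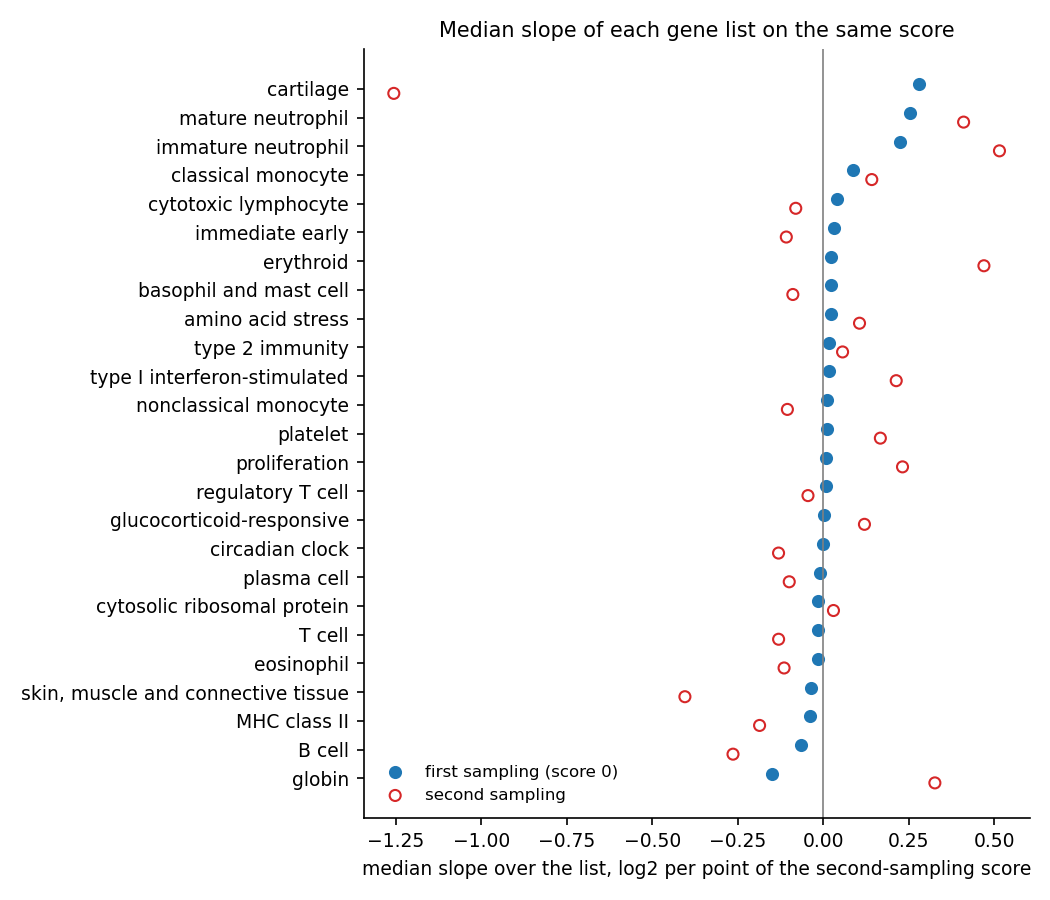
Median slope over each of 25 gene lists on the second-sampling score (horizontal axis, log2 CPM per score point); filled points are the first sampling with score 0 and open points the second sampling of the same numbers. Most first-sampling medians lie near 0. The highest are those of cartilage genes at 0.280, with 7 of 8 slopes positive and 0 under an unadjusted p of 0.05, and of mature and immature neutrophil genes at 0.253 and 0.225; the cartilage point of the second sampling rests on 1 gene.

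The remaining lists held no gene called at the first sampling either. At the first sampling the 28 cytosolic ribosomal protein genes had a median of -0.0150, 16 proliferation genes 0.00788, 16 platelet genes 0.00967, 14 amino acid stress genes 0.0220 and 10 glucocorticoid-responsive genes 0.000892. Of these lists, 5, 6, 7, 4 and 1 genes had lower slopes at the first than at the second sampling by edgeR's test, beside 8.65% of all genes tested. The 1 of 10 glucocorticoid-responsive genes is near that share. Fkbp5, a co-chaperone induced by glucocorticoids, had 0.01 ± 0.03 at the first sampling and 0.18 ± 0.05 at the second (difference -0.17 ± 0.06, adjusted p = 0.0359). The 4 globin genes had a median of -0.150 at the first and 0.326 at the second sampling, and 3 of them differed. The kit removed globin RNA, so these values also carry how well it was removed.

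Slopes were also compared between the early first samplings on days 2 to 12 and the later ones on days 16 to 23. With edgeR's quasi-likelihood test, 0 of 17115 genes (0%) differed between groups 1 to 4 and groups 5 to 7, and 1407 had an unadjusted p under 0.05. DESeq2 called 16, among them hair keratin and cartilage genes such as Krt73, Krt33a and Acan, named here after their values were seen, with counts carried by few samples. Wfdc21 had a difference of -0.17 ± 0.21 between early and later samplings (SE), Clec4e one of -0.10 ± 0.20, Mmp8 one of -0.06 ± 0.22 and S100a8 one of -0.06 ± 0.22.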

How the data were processed

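The authors deposited 1 table of expected counts for 55414 genes, of which 2.86% of values were not whole. Per the submitters' processing notes, reads were processed with DRAGEN on GRCm39; the version, annotation and filters of that step: not given in the sources used here. Per the labels' protocols, libraries were stranded total RNA depleted of ribosomal and globin RNA. All count columns were matched to samples (0 unmatched). Genes with near-identical copies (Oas1e, Ly6g, Xlr3b, globins, hair keratins) may share reads and are uncertain to that extent.

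Counts were rounded, filtered with filterByExpr over groups (minimum count 10, minimum total 15), TMM-scaled and tested with edgeR 4.0.16 (R 4.3.3; robust quasi-likelihood, two-sided, Benjamini-Hochberg over all genes tested, called under 0.05). DESeq2 1.42.0 was the alternative tool. Standard errors are the absolute slope divided by the square root of F. Fits were tested on simulated data. The simulated slopes were larger than those of the mature neutrophil genes at the first sampling, so finding slopes of that size was not tested. The second sampling used the 56 samples of the same numbers, and the difference of slopes used both samplings. Repeated samples were taken as independent. The labels do not say whether samples stand for separate mice beyond their # numbers, so p-values measure the spread between these samples. Pairing used log2 CPM deviations from group means and 100000 permutations within groups (Python 3.11.15, SciPy 1.17.1).

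Named genes at the first sampling are the 10 of smallest p in each direction with a mean of at least 1 CPM, since none was called. At the second sampling and for the difference they are the 5 largest called changes in each direction with at least 1 CPM. A fixed set of blood cell genes was added. Members, lists, tests and named sets were chosen with earlier results of these data known. The alternatives were another normalization and tool, no filter, technical covariates, a # number block, a split at score 2, subsets of groups, and leaving out each group and each sample.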

Additional observations from a re-analysis of the deposited data

Results flagged for a closer look

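In 91 sets of values from groups of 4 to 10 members, 9 had 1 sample far from the rest of its group; chance flags about 1 in 20 sets. Of these, 4 are neutrophil genes in # 7 of group 1, which reached a later score of 3, on the log2(CPM + 1) scale. Wfdc21 was 3.74 there, against 1.65 to 2.66 in the 9 others of the group, and Clec4e was 4.52, against 2.10 to 3.25. Mmp8 was 6.29, against 2.87 to 4.01, and S100a8 was 9.07, against 6.44 to 7.72. Without this sample the slopes of Clec4e, Mmp8 and S100a8 were 0.29, 0.26 and 0.25, the lowest of any single omission. Mmp8 was also 5.73 in # 5 of group 3, the only mouse that reached a score of 4, against 3.26 to 4.42 in the other 9.

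The B cell list mean was 4.44 log2 CPM in # 2 of group 5, against 5.27 to 5.77 in the 7 others. The T cell list mean was 4.91 in # 1 of group 2, against 4.404 to 4.66 in the 9 others. The globin share was 0.960% in # 7 of group 7, against 7.89% to 8.89% in the 3 others. The mitochondrial rRNA share was 20.5% in # 4 of group 6, against 13.7% to 15.8% in the 5 others.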

How the results depend on the processing

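The first-sampling count of 0 genes held with DESeq2, other size factors, covariates, the replicate block, the split at score 2, every subset of groups and every omitted sample (0 to 0 genes). Without a low-count filter edgeR called 5 (Gm13231, Gm6828, Gm45047, Gm47941 and Gm2814, named after their values were seen), each with a mean under 0.02 CPM. No named gene was called at the first sampling under any of these. The 20 genes of smallest p kept their sign throughout (360 values, and 1120 with 1 sample left out). They were picked by the p of this same slope, so a kept sign is largely fixed by that choice. Among 21 other named genes 9 changed sign, each with a main slope of at most 0.087 in size (22 of 378 values, and 17 of 1176 with 1 sample left out). Ccr3, for one, had 0.04 in groups 1 to 3. The number at an unadjusted p under 0.05 was 446 in groups 1 to 3, of which 300 had a negative slope. It was 529 to 804 when 1 sample was left out. The second-sampling count of 5160 was 0 in groups 5 to 7, where Cystm1 had -0.000789 and Derpc 0.689, and 2878 with the 2 shares as covariates. It was 4844 and 4956 without # 5 and # 10 of group 5. The difference between early and later samplings gave 16 genes with DESeq2. The causes were not tested.

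Over all genes the # numbers did not meet the rule that every pair correlates above 0.1 (17 of 90 did, and 13 of 90 matched their own number best). With the 50 genes picked in groups 8 and 9, 43 of the 56 member pairs did, again not all, and 25 of 56 matched best. The block is therefore given as an alternative. In fits of 1 sampling the block was the # number alone, shared by mice of different groups, so it did not test the pairing. It gave 0 genes at the first sampling, 4096 at the second and 0 for early against later samplings. With this block Peg3 and Derpc were not called at the second sampling (adjusted p = 0.109 and 0.0613, edgeR). For the difference the block was each group and # number, and 2782 genes were called (without Krt71 and Krtap22-2, adjusted p = 0.411 and 0.0629, edgeR). DESeq2 gave 5634 and 3102 genes at the second sampling and for the difference. The difference gave 2288 genes without # 5 of group 5, and 2173 also without # 4 and 5 of group 4. Depth limits genes with few counts, and 4 to 10 mice a group with 7 scores of 0 limit the slopes.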
